A study of Homo sapiens with 6 samples.

Results

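The genes of Fanconi anemia, homologous recombination and checkpoint repair were followed in rhabdomyosarcoma cells treated with the small molecule YK-4-279. The group held 40 genes, found by their symbols among the 35268 named genes of the expression matrix. All 40 were detected with a mean of at least 10 normalized counts over the 6 libraries, and so all 40 belonged to the 13930 genes tested. The RNA came from Rh30, an established human cell line of fusion-positive rhabdomyosarcoma, a muscle-like tumor driven by the PAX3-FOXO1 fusion protein. Cells kept in RPMI medium with fetal bovine serum received 1 µM YK-4-279 dissolved in DMSO, or DMSO alone, for 24 hours. YK-4-279 is known as an inhibitor of ETS transcription factor function, first described for the Ewing sarcoma fusion protein. Polyadenylated RNA was sequenced from 3 libraries in each group, and the comparison asks how the drug altered gene expression. Values are normalized counts, that is, reads per gene after scaling by 1 factor of each library.

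DNA crosslinks and stalled or broken replication forks are handled by a connected set of proteins. The Fanconi core complex attaches ubiquitin to FANCD2 and FANCI at a crosslink, nucleases then open the lesion, and the broken strand is restored by homologous recombination, in which BRCA1, PALB2 and BRCA2 act on resected DNA. Single-stranded DNA covered by replication protein A activates the kinase ATR, which with CHEK1 slows the cell cycle, while ATM and CHEK2 respond to double-strand breaks. Many genes of this set are transcribed mainly in proliferating cells, from late G1 into S phase.

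The libraries had the profile of a myogenic tumor line. Of 9 skeletal myogenic markers, 8 had a mean of at least 10 normalized counts, the exception being MYF6, a late myogenic factor, at 0.558. MYOD1, the myogenic master regulator, was the most abundant of them, at a mean of 36993. The summed level of the 9 markers was 89962, 105025 and 101441 normalized counts in DMSO replicates 1, 2 and 3, and 101201, 100715 and 96343 in YK-4-279 replicates 1, 2 and 3. None of 5 immune markers reached a mean of 10, with CD68 at 0 in each library. TREX1, which shares exon bases with ATRIP, was also listed at 0, so an exact 0 may not show absence. Of 5 epithelial markers, EPCAM alone did so (mean 64.6), and KRT5 was at 0 throughout. Among 5 fibroblast and 5 endothelial markers, 4 and 4 did so, and the most abundant were PDGFRA (mean 400.3) and TEK (mean 204).

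Reads assigned to named genes numbered 16724650, 20771226 and 24677433 in DMSO replicates 1, 2 and 3. They numbered 23230675, 18752655 and 19876724 in YK-4-279 replicates 1, 2 and 3. DMSO replicate 1 differed from all the rest. Its mean correlation with them across genes was 0.989, against 0.992 or more for each of the rest. Mitochondrial genes took 6.05% of its reads, against 4.99% and 4.93% for DMSO replicates 2 and 3 and 4.74%, 5.03% and 4.795% for the YK-4-279 libraries. Relative to the mean of the other DMSO libraries, the 2741 genes of lowest transcript GC content were higher in DMSO replicate 1, with a median log2 difference of 0.21, and the 2741 of highest GC content were lower, at -0.26. The repair genes are poor in GC, with a median of 42.6% against 48.5% over all genes tested, and 13 of the 40 were among the genes of lowest GC content. Their median difference between DMSO replicate 1 and the other DMSO libraries was 0.18, with 32 of 40 above 0, against 0.02 over all genes. For this reason counts below are also given without DMSO replicate 1 and after correction for GC content and transcript length, by a loess trend taken off each library.

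Promoter sequence is shown for the 5 members that fell most among those with an entry in the RefSeq promoter table (build GRCh38.p14) because all 5 were past the test in the same direction. Of the 40 genes, 34 had an entry, and RPA3, DNA2, RMI2, FANCI, RPA2 and RAD54B had none. The 250 bases before each start were searched on both strands for 5 motifs. Each stretch has 150 bases, reads 5′ to 3′ on the strand of its gene, and lies before the start and outside annotated exons. Motif matches are in capitals. RAD51AP1 lies at chr12:4538648-4538797 on the plus strand, BARD1 at chr2:214809684-214809833 on the minus strand, UBE2T at chr1:202341985-202342134 on the minus strand, BLM at chr15:90717196-90717345 on the plus strand and BRIP1 at chr17:61863560-61863709 on the minus strand.
RAD51AP1: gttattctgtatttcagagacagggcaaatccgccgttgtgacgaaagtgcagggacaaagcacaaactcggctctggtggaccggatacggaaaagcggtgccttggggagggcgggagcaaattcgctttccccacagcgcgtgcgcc
BARD1: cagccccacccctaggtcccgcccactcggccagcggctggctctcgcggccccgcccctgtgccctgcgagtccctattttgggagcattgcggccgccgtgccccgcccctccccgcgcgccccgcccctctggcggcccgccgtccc
UBE2T: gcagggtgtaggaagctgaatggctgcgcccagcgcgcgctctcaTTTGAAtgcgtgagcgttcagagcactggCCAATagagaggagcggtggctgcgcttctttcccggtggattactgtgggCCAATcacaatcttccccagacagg
BLM: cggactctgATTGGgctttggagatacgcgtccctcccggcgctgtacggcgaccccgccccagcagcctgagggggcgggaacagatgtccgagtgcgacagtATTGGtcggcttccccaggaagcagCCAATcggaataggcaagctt
BRIP1: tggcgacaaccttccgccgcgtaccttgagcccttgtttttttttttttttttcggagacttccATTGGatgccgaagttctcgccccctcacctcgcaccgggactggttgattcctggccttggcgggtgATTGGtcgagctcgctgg

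The capitals in UBE2T are TTTGAA, a form of the CHR element, followed by CCAAT at 2 places, and those in BLM and BRIP1 are CCAAT or its reverse complement. RAD51AP1 and BARD1 held no match in the stretch shown, although RAD51AP1 had the reverse complement of CCAAT nearer its start, among bases not shown. Bases not shown also held CHR letters and an ETS core for BLM, and CHR letters and a further CCAAT for BRIP1. CCAAT was found before 19 of 34 members (55.9%), against 35.7% of the 10881 genes tested that had an entry. It occurred before 8 of the 14 members past the threshold and 11 of the 20 others, and the medians were -0.30 with it and -0.27 without. The E2F letters TTTCCCGC, TTTCGCGC, TTTGCCGC or TTTGGCGC were found before 4 members (11.8%, against 4.503% of all), namely FANCA, FANCC, PMS2 and RMI1. These were 1 of the 14 members past the threshold and 3 of the 20 others, with medians of -0.18 for the 4 with E2F letters and -0.28 for the 30 without. The CHR letters TTTGAA or TTTAAA were found before 6 (17.6%, against 13.2%). They occurred before 4 of the 14 members past the threshold and 2 of the 20 others. The median log2 fold change was -0.36 for the 6 members with them and -0.27 for the 28 without. The ETS letters CCGGAAGT were found before 4 (11.8%, against 7.21%), which were BRCA2, PALB2, FANCD2 and POLQ, 2 of the 14 and 2 of the 20. The ETS core CCGGAA, which lies within these letters, was found before 12 (35.3%, against 25.8%). It occurred before 3 of the 14 members past the threshold and 9 of the 20 others. The median log2 fold change was -0.16 for the 12 members with the core and -0.30 for the 22 without. A match describes letters in these windows and was not tested as a binding site.

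Most of the repair genes were lower after drug treatment, by moderate amounts. Of the 40 genes, 36 were lower and 4 were higher, namely PMS2, FANCF, XRCC3 and FANCE, and the median log2 fold change was -0.28. Over all genes tested, 7246 of 13930 were lower (52.0%), with a median of -0.0075. At a limma adjusted p-value under 0.05 (Benjamini-Hochberg over all genes tested), 17 members fell, which is 42.5% of the members against 3.41% of all genes in either direction and 2.15% in the lower direction. In 27 members each YK-4-279 library lay below each DMSO library, against 15.1% of all genes. The 17 members were RAD51AP1, FANCI, DNA2, BARD1, UBE2T, BLM, BRIP1, CHEK2, FANCL, FANCD2, EXO1, RMI2, BRCA1, CLSPN, FANCA, POLQ and XRCC2, with log2 fold changes from -0.52 to -0.26. Of the 4 higher members, 0 were called by limma, edgeR or DESeq2 and 0 had an unadjusted p under 0.05 in limma.

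The number of calls depended on the libraries and settings used. Without DMSO replicate 1, 25 members fell, against 8.46% of all genes, the median was -0.24, and each of the 17 was among the 25. After correction for GC content and transcript length, 26 members fell, against 10.5% of all genes, the median was -0.25, and each of the 17 was among the 26. FANCB, RAD54L, FANCM, RAD51C, TOPBP1, FANCG, MSH6 and RPA1 were called besides the 17 in both of these fits, and CHEK1 in the latter. Leaving out a YK-4-279 library instead ended most calls. Without YK-4-279 replicate 1, 2 or 3, limma called 0, 0 and 2 of the 40 members, although 25, 25 and 27 had an unadjusted p under 0.05. Over all genes 11.7%, 13.7% and 13.2% had such a p in these fits. With all 6 libraries edgeR called 16 members and 3.34% of all genes, and DESeq2 called 20 members and 4.47% of all genes. Without DMSO replicates 2 and 3, in turn, limma called 19 and 12. With all 6 libraries it called 11 members with quantile normalization (1.99% of all genes) and 0 with eBayes without trend, where 25 members and 16.1% of all genes had an unadjusted p under 0.05. The count over all genes moved from 475 to 19, 23 and 46 without YK-4-279 replicates 1, 2 and 3. Without DMSO replicates 1, 2 and 3 it was 1823, 676 and 242. The member medians across the 6 fits that left out a library lay between -0.30 and -0.24.

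Averaged over the 40 genes, the deviation from each gene's mean was 0.22, 0.069 and 0.091 on the log2 scale in DMSO replicates 1, 2 and 3, and -0.14, -0.12 and -0.12 in YK-4-279 replicates 1, 2 and 3. In this average each DMSO library was above each YK-4-279 library, and DMSO replicate 1 was the highest. It held the highest value for 30 of the 40 members, against 33.7% of all genes, and was the lowest DMSO library for others, such as FANCA, FANCG, FANCE, RMI2 and XRCC3. The share of all reads that fell on the 40 genes was 0.273%, 0.247% and 0.253% with DMSO and 0.221%, 0.22% and 0.225% with the drug.

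**Figure D1:**
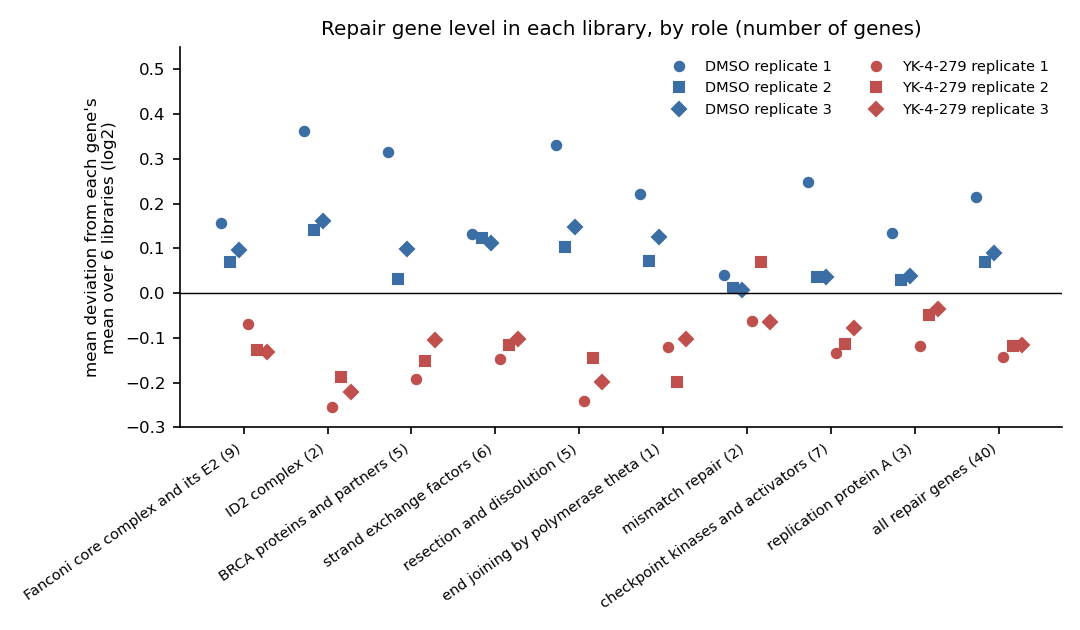
Mean deviation of the repair genes from each gene's mean over the 6 libraries (vertical axis, log2), by role and over all 40 genes (horizontal axis, number of genes in parentheses). Each symbol is 1 library, blue for DMSO and red for YK-4-279. Over all 40 genes the DMSO libraries lie at 0.22, 0.069 and 0.091 and the YK-4-279 libraries at -0.14, -0.12 and -0.12.

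Genes of the cell cycle moved beside the repair genes. Of 20 S phase genes, 20 were lower and 14 fell (limma), against 2.15% of all genes, with a median log2 fold change of -0.30. CCNE2, a cyclin of S phase entry, fell from a mean of 367 ± 27.8 normalized counts to 254 ± 3.71 (SD, n = 3 each), a change of -0.53 on the log2 scale (limma adjusted p = 0.0106). The count was 20 without DMSO replicate 1 (against 8.46% of all genes), 20 after correction for GC content and length (against 10.5%), 8 without DMSO replicate 3 and 8 with quantile normalization. It was 1 with eBayes without trend, and 1, 1 and 1 without YK-4-279 replicates 1, 2 and 3, where 18, 17 and 17 had an unadjusted p under 0.05 and the medians were -0.28, -0.32 and -0.30. Of 18 G2 and M phase genes, 16 were lower and 6 fell, with a median of -0.19. KIF11, a mitotic kinesin, fell from a mean of 3389.7 ± 287 normalized counts to 2548 ± 81.7 (SD, n = 3 each), a change of -0.41 on the log2 scale (limma adjusted p = 0.00748). That count was 11 after the same correction (against 10.5% of all genes) and 9 without DMSO replicate 1 (against 8.46%). It was 0, 0 and 2 without YK-4-279 replicate 1, 2 and 3, where 7, 12 and 8 had an unadjusted p under 0.05 in limma. Over all genes 11.7%, 13.7% and 13.2% had such a p in these fits. With all 6 libraries edgeR called 6 and DESeq2 7. Limma with eBayes without trend called 0, with 8 at an unadjusted p under 0.05 (against 16.1% of all genes). In these bulk libraries, fewer cells in S phase and less of these RNAs per cell cannot be told apart.

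**Figure D2:**
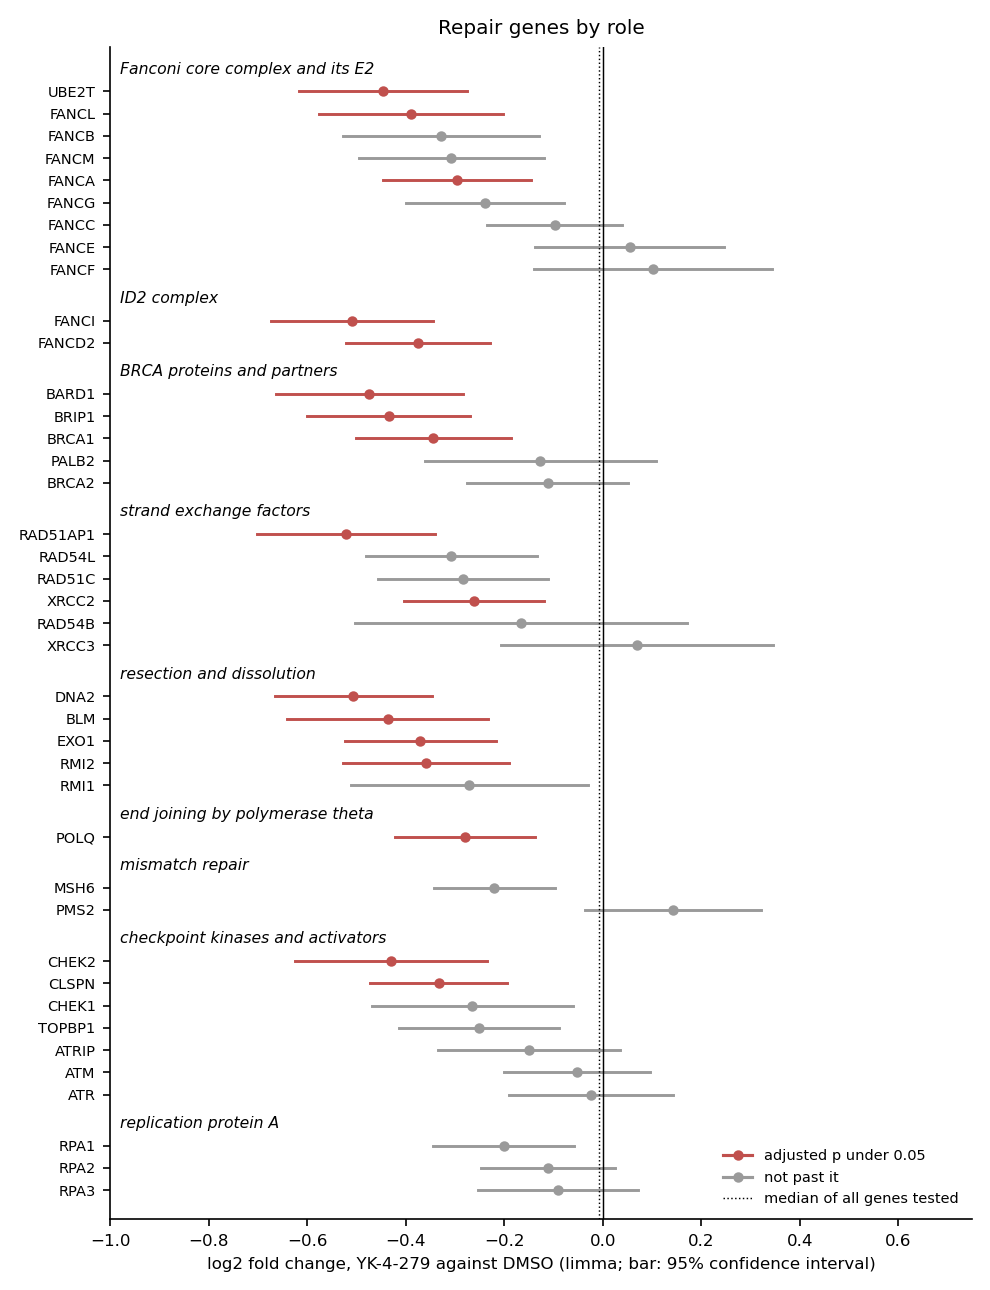
Log2 fold change of each of the 40 repair genes with YK-4-279 against DMSO (horizontal axis), grouped by role (vertical axis). Points are limma estimates from 3 libraries in each group and bars their 95% confidence intervals, red where the adjusted p-value was under 0.05, with a dotted line at the median of all genes tested. The 17 red genes lie between -0.52 and -0.26, and the intervals of FANCC, FANCE, FANCF, PALB2, BRCA2, RAD54B, XRCC3, PMS2, ATRIP, ATM, ATR, RPA2 and RPA3 include 0.

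The Fanconi core complex is a ubiquitin ligase assembled at crosslinks. Of the 9 genes of the complex and its ubiquitin-conjugating enzyme, 7 were lower with the drug. UBE2T, FANCL and FANCA fell, and FANCE and FANCF were slightly above 0. UBE2T encodes the ubiquitin-conjugating enzyme that works with the complex, and lies on chromosome 1 between bases 202331544 and 202341984 (hg38). It had 1437, 1196 and 1231 normalized counts in DMSO replicates 1, 2 and 3, and 926, 986 and 915 in YK-4-279 replicates 1, 2 and 3. The groups did not overlap, and DMSO replicate 1 was the highest. Its log2 fold change came to -0.45 (95% confidence interval -0.62 to -0.28, limma adjusted p = 0.0105), and without DMSO replicate 1 it was -0.36. FANCL, the catalytic subunit of the ligase, had 933, 860.4 and 766 with DMSO and 629, 623 and 698 with the drug, a log2 fold change of -0.39 (limma adjusted p = 0.0284). The lowest DMSO library, replicate 3, was above the highest YK-4-279 one.

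FANCA, a scaffold subunit on chromosome 16 between bases 89726683 and 89816977, had 1004, 1061 and 1116 normalized counts with DMSO and 885, 841 and 862 with the drug (log2 fold change -0.30, limma adjusted p = 0.0367). Here DMSO replicate 1 was the lowest of its group, and the log2 fold change was -0.33 without it. FANCA did not pass the threshold without DMSO replicate 2 or 3. Nor did it with scaling by TMM (limma adjusted p = 0.0540) or by quantiles (limma adjusted p = 0.0763), while edgeR and DESeq2 called it. FANCA shares 19.6% of its exon bases with ZNF276 on the opposite strand, and since use of strand in the counting is not stated, reads on the shared bases cannot be assigned to either gene with certainty. FANCB and FANCM, a core subunit and the translocase that anchors the complex on DNA, had log2 fold changes of -0.33 and -0.31, at limma adjusted p = 0.0714 and 0.0716. In both of them the groups did not overlap. FANCG, a partner of FANCA, was at -0.24 (limma adjusted p = 0.0993). FANCC, the core subunit with the highest mean, had 1157, 1182 and 1171 with DMSO and 1103, 1108 and 1071 with the drug, and a log2 fold change of -0.097 (95% confidence interval -0.23 to 0.039), again with the groups apart. FANCE was at 0.055 (95% confidence interval -0.14 to 0.25), was at 0.0087 without YK-4-279 replicate 1, 0.097 without YK-4-279 replicate 3 and 0.10 without DMSO replicate 3, and was below 0 without DMSO replicate 1 (-0.0067) and after correction for GC content and transcript length (-0.023). FANCF was at 0.10 (95% confidence interval -0.14 to 0.34), with values from 0.031 without YK-4-279 replicate 1 and 0.045 without DMSO replicate 3 to 0.15 without YK-4-279 replicate 2 and 0.18 without DMSO replicate 1.

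FANCD2 and FANCI form the ID2 complex, the substrate that the core complex marks with ubiquitin, and both fell. FANCI, on chromosome 15 between bases 89243945 and 89317261, had 4098, 3370.5 and 3336 normalized counts in the DMSO libraries and 2445, 2563 and 2550.3 in the YK-4-279 libraries. The YK-4-279 values were within a narrow band below the DMSO values, of which replicate 1 was the highest. The means were 3602 ± 430.1 and 2519 ± 65.1 (SD, n = 3 each), so that the YK-4-279 mean was 30.05% lower, with a log2 fold change of -0.51 (95% confidence interval -0.67 to -0.34, limma adjusted p = 0.00538). FANCD2, on chromosome 3 between bases 10026370 and 10101932, had 1450.0, 1298 and 1350.1 with DMSO and 1033, 1082 and 1039.5 with the drug, a log2 fold change of -0.38 (95% confidence interval -0.52 to -0.23, limma adjusted p = 0.0109). The log2 fold changes of FANCI and FANCD2 were -0.41 and -0.33 without DMSO replicate 1.

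The BRCA group holds the tumor suppressors that steer broken ends into recombination. BRCA1 and its partners BARD1 and BRIP1 fell, while BRCA2 and PALB2, which act after resection, did not pass the test. BRCA1, a ubiquitin ligase on chromosome 17 between bases 43044295 and 43170245, had 2077, 1718 and 1884 normalized counts with DMSO and 1495, 1467 and 1499 with the drug. The DMSO libraries spread more widely than the YK-4-279 libraries, and the groups did not overlap. The log2 fold change came to -0.34 (95% confidence interval -0.50 to -0.19, limma adjusted p = 0.0226). BARD1, which pairs with BRCA1 to form the active ligase, had 881, 731 and 748 with DMSO and 548, 544 and 603 with the drug, a log2 fold change of -0.47 (limma adjusted p = 0.0119). BRIP1, the helicase FANCJ, had 1323, 1102 and 1256 and 895, 890.0 and 930.5, a log2 fold change of -0.43 (limma adjusted p = 0.0105). Its DMSO and YK-4-279 libraries were again apart. BRCA2 was at -0.11 (95% confidence interval -0.27 to 0.052) and PALB2, which bridges BRCA1 and BRCA2, at -0.13 (95% confidence interval -0.36 to 0.11), and in both the groups overlapped. For PALB2 the sign rested on DMSO replicate 1, without which it was 0.0096, and BRCA2 was then at -0.038. PALB2 was at -0.20 without DMSO replicate 3 and -0.082 without YK-4-279 replicate 1.

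**Figure D3:**
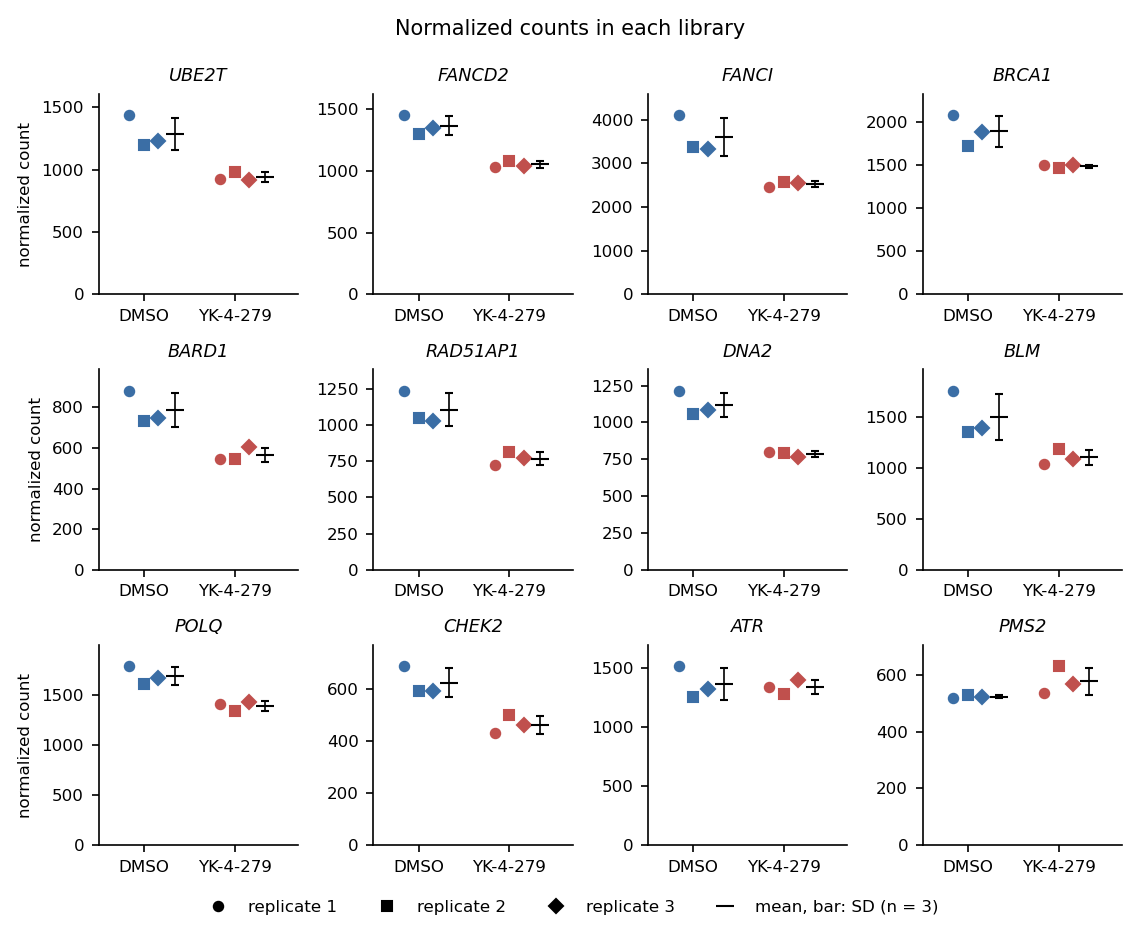
Normalized counts (vertical axes, from 0) of 12 repair genes in each library, DMSO in blue and YK-4-279 in red, with the symbol giving the replicate. The black mark and bar are the mean and SD of 3 libraries. Drug-treated libraries lie below DMSO libraries in the first 10 genes, overlap them in ATR, and lie above them in PMS2.

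Strand exchange factors help a resected end to invade a matching duplex, and 5 of the 6 genes of this role were lower. RAD51AP1, which stimulates strand invasion and lies on chromosome 12 between bases 4538798 and 4560047, had the lowest log2 fold change of the 40 members. It had 1236, 1048 and 1030.3 normalized counts in the DMSO libraries and 719.8, 809.6 and 774 in the YK-4-279 libraries. The groups were apart, with DMSO replicate 1 the highest. The log2 fold change came to -0.52 (95% confidence interval -0.70 to -0.34, limma adjusted p = 0.00725), and it was -0.44 without DMSO replicate 1. XRCC2, which acts with RAD51C in strand exchange, had 1688, 1522 and 1603 with DMSO and 1394, 1311 and 1309.7 with the drug, a log2 fold change of -0.26 (limma adjusted p = 0.0485), close to the threshold. Its groups were nevertheless apart.

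RAD54L, a motor protein that remodels the paired DNA, was at -0.31 (limma adjusted p = 0.0552), and RAD51C, a further factor of strand exchange, at -0.28 (limma adjusted p = 0.0716), with no overlap of the groups in either. RAD54L shares 19.9% of its exon bases with LRRC41 on the opposite strand. RAD54B, related to RAD54L, had the fewest counts of the members, with a mean of 99.5, and its log2 fold change of -0.17 had a wide interval (-0.50 to 0.17) and became -0.092 without DMSO replicate 1 and -0.092, -0.30 and -0.11 without YK-4-279 replicates 1, 2 and 3. It shares 66.0% of its exon bases with FSBP on the same strand, so its value is uncertain. XRCC3, which pairs with RAD51C, was at 0.07 (95% confidence interval -0.21 to 0.35) and shares 76.7% of its exon bases with KLC1 on the opposite strand. In XRCC3, DMSO replicate 1 had 658 normalized counts, against 965 and 1004 in the other DMSO libraries. Without it the log2 fold change was -0.12, and after correction for GC content and transcript length it was -0.022. It was 0.15 and 0.18 without DMSO replicates 2 and 3, and 0.021 and 0.12 without YK-4-279 replicates 1 and 2.

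Resection exposes the single strand on which recombination starts, and dissolution takes joined duplexes apart at the end. In this group 4 of 5 genes fell, where 2.15% of all genes did, and RMI1 did not pass the test. Without YK-4-279 replicates 1, 2 and 3 in turn, limma called 0, 0 and 1 of the group, and with eBayes without trend 0. DNA2, a nuclease of long-range resection on chromosome 10 between bases 68414064 and 68472121, had 1215, 1060.2 and 1084 normalized counts with DMSO and 802, 795 and 763 with the drug. The highest YK-4-279 library was well below the lowest DMSO library. The log2 fold change came to -0.51 (95% confidence interval -0.67 to -0.35, limma adjusted p = 0.00473). EXO1, the other nuclease of that step, had 1217, 1098 and 1158 and 897, 937 and 852, a log2 fold change of -0.37 (limma adjusted p = 0.0141). BLM, the helicase lost in Bloom syndrome, had 1753, 1349 and 1386 with DMSO and 1031, 1182 and 1085 with the drug, a log2 fold change of -0.44 (limma adjusted p = 0.0248). DMSO replicate 1 was far above its group in BLM, and without it the log2 fold change was -0.32.

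RMI2 and RMI1 join BLM and topoisomerase 3 alpha in the dissolvasome. RMI2 had 539.7, 562 and 576 normalized counts with DMSO and 425, 442 and 440.2 with the drug, a log2 fold change of -0.36 (95% confidence interval -0.53 to -0.19, limma adjusted p = 0.0254). In RMI2, DMSO replicate 1 was the lowest of its group, and the groups were apart all the same. RMI1 had 1248, 897 and 924 with DMSO and 763, 859.5 and 898 with the drug. The groups overlapped by a small margin, and the log2 fold change of -0.27 (limma adjusted p = 0.216) became -0.12 without DMSO replicate 1.

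POLQ encodes polymerase theta, which joins resected ends through short matching sequences and serves as a backup to recombination. Its gene lies on chromosome 3 between bases 121431431 and 121545988. It had 1784, 1607 and 1669 normalized counts in the DMSO libraries and 1408, 1333 and 1425 in the YK-4-279 libraries. The groups did not overlap, and POLQ fell by a log2 fold change of -0.28 (95% confidence interval -0.42 to -0.14, limma adjusted p = 0.0363).

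Of the mismatch repair members, neither passed the limma test, and they lay on opposite sides of 0. Of these 1 had an unadjusted p under 0.05 in limma, and edgeR and DESeq2 called 0 and 1. MSH6, which recognizes mispaired bases, had 5804, 5456 and 5491 normalized counts with DMSO and 4849.9, 4955 and 4578 with the drug. Each YK-4-279 library was below each DMSO library, and the log2 fold change came to -0.22 (95% confidence interval -0.34 to -0.097, limma adjusted p = 0.0525). MSH6 passed the threshold when DMSO replicate 1 was omitted, at -0.19 (limma adjusted p = 6.7e-04). MSH6 shares 22.7% of its exon bases with FBXO11 on the opposite strand. PMS2, an endonuclease of the pathway, was the 1 member in which each YK-4-279 library lay above each DMSO library, with 517, 528 and 522 and 536, 630.3 and 566 normalized counts. Its log2 fold change came to 0.14 (95% confidence interval -0.036 to 0.32, limma adjusted p = 0.382), and 0.078 without YK-4-279 replicate 2. PMS2 has near-identical pseudogene copies, of which PMS2CL had a mean of 453 normalized counts against 549.9 for PMS2, so that its value is uncertain.

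All 7 checkpoint genes were lower, and 2 of them, CHEK2 and CLSPN, fell, where 2.15% of all genes did. CHEK2, the effector kinase downstream of ATM, had 687, 592 and 593 normalized counts with DMSO and 429, 499 and 460.2 with the drug. DMSO replicate 1 was again the highest, and the groups were apart. The log2 fold change came to -0.43 (95% confidence interval -0.62 to -0.23, limma adjusted p = 0.0226). CLSPN, the claspin adaptor through which ATR activates CHEK1, had 3377, 2914 and 3042 with DMSO and 2446, 2466 and 2481 with the drug, a log2 fold change of -0.33 (limma adjusted p = 0.0145). The YK-4-279 libraries of CLSPN were nearly equal.

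TOPBP1, an activator of ATR, had 4149.6, 3468 and 3378 normalized counts with DMSO and 2997, 3010.0 and 3195 with the drug, without overlap, and a log2 fold change of -0.25 (limma adjusted p = 0.0871). Without DMSO replicate 1 it was at -0.16 and past the threshold (limma adjusted p = 0.00777). CHEK1, the effector kinase of ATR, was at -0.26 (limma adjusted p = 0.152), or -0.16 without DMSO replicate 1, with overlapping groups. It shares 13.4% of its exon bases with an unnamed gene on the opposite strand. ATRIP, the partner that brings ATR to covered single strands, was at -0.15 (95% confidence interval -0.34 to 0.035) and shares 26.7% of its exon bases with TREX1 on the same strand, which was listed at 0. The kinases at the top of the pathway, ATM and ATR, were among the members closest to 0. ATM was at -0.052 (95% confidence interval -0.20 to 0.096) with values from -0.096 without DMSO replicate 3 to 0.00066 without DMSO replicate 1. ATR was at -0.024 (95% confidence interval -0.19 to 0.14), and was above 0 without DMSO replicate 1 (0.054), without YK-4-279 replicate 2 (0.0062), with quantile normalization (0.017) and after correction for GC content and transcript length (0.013). It was -0.084, -0.042 and -0.055 without DMSO replicate 2, DMSO replicate 3 and YK-4-279 replicate 3.

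Replication protein A binds exposed single strands in replication and repair alike. Its 3 subunit genes were lower and none passed the limma test. Of these 1 had an unadjusted p under 0.05 in limma, and edgeR and DESeq2 called 0 and 0. RPA1, the large subunit, had 3051, 2652 and 2644 normalized counts with DMSO and 2373, 2457 and 2415 with the drug, with no overlap, and a log2 fold change of -0.20 (95% confidence interval -0.35 to -0.057, limma adjusted p = 0.121). RPA2 was at -0.11 (95% confidence interval -0.25 to 0.025) and RPA3 at -0.091 (95% confidence interval -0.25 to 0.072). With DMSO replicate 1 omitted, RPA1 was at -0.13 and past the threshold (limma adjusted p = 0.0348), and RPA3 was at -0.061. RPA2 was at -0.064 without YK-4-279 replicate 1.

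Per kilobase of the canonical transcript, the levels of the members differed widely. In DMSO-treated cells UBE2T had the highest level, at 1467 ± 149 normalized counts per kilobase (SD, n = 3), followed by RPA2 at 1362 ± 2.19 and MSH6 at 1309 ± 44.9. RPA2 lay within 1 SD of UBE2T, and MSH6 did not reach RPA2 within its SD. FANCI came next, at 761 ± 90.9. The lowest levels were those of RAD54B (34.2 ± 3.30), FANCF (69.3 ± 6.82) and FANCM (98.3 ± 9.52). The level of RAD54B is uncertain, since it shares 66.0% of its exon bases with FSBP on the same strand. With the drug, UBE2T stood at 1073 ± 43.0, RPA2 at 1263 ± 77.8 per kilobase, and MSH6 at 1124 ± 45.6, so that RPA2 was the highest of the 3.

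**Figure D4:**
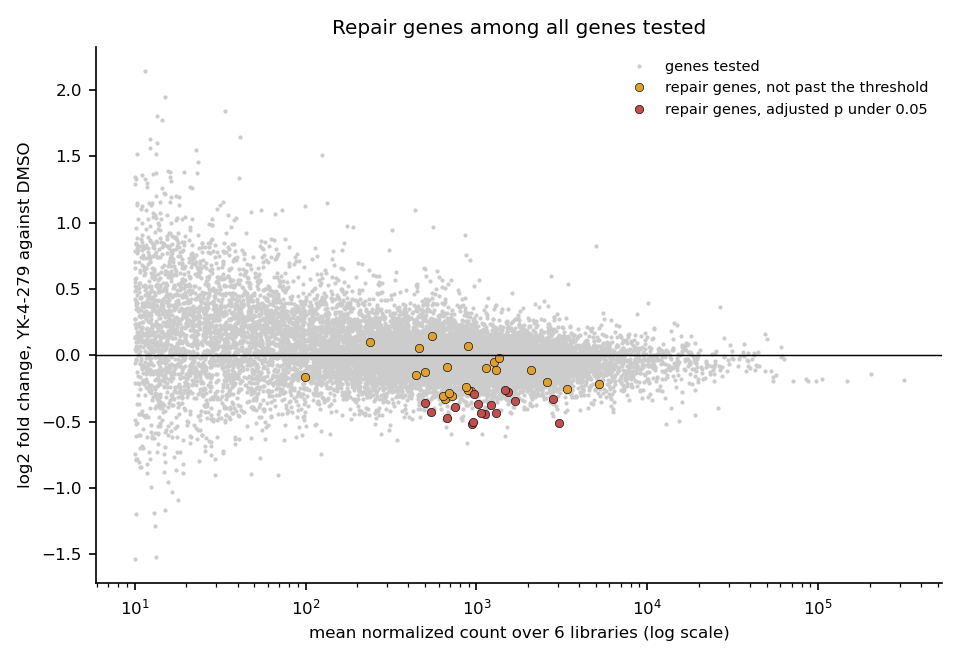
Log2 fold change with YK-4-279 against DMSO (vertical axis) by mean normalized count over the 6 libraries (horizontal axis, log scale) for the 13930 genes tested, 1 point per gene. Repair genes are drawn in red where the limma adjusted p-value was under 0.05 and in orange otherwise. The members have means from 99.5 to 5189 and lie mostly below 0.

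Other genes of the same pathways, listed by function, were mixed in direction, and their list medians lay closer to 0 than that of the members. Members and lists were chosen with earlier results of these data known, so this contrast may come from the choice and was not tested. Over all genes 52.0% were below 0 and 2.15% fell. Of 20 further Fanconi and crosslink repair genes, 13 were lower, 7 were higher and 1 fell, and the median log2 fold change came to -0.075 (-0.047 without YK-4-279 replicate 1). This was USP1, which removes ubiquitin from FANCD2, with 5555, 4598 and 4752 normalized counts in the DMSO libraries and 3845, 4042 and 4160.1 in the YK-4-279 libraries, and a log2 fold change of -0.30 (limma adjusted p = 0.0368). Of 26 further recombination genes, 20 were lower, 6 were higher and 4 fell, with a median of -0.12, or -0.061 without DMSO replicate 1 and -0.061 after correction for GC content and length. Among these were MRE11, the nuclease that starts resection, and FIGNL1, an ATPase of recombination, at -0.40 and -0.31 (limma adjusted p = 0.0164 and 0.0226). MRE11 had 1025, 900.3 and 916 with DMSO and 663, 726 and 757 with the drug, with no overlap. MCM8, a helicase subunit of recombination named after its values were seen, was at -0.29 (limma adjusted p = 0.0358). TOP3A, the topoisomerase of the dissolvasome and the gene of this list with the highest mean, was at -0.14 (limma adjusted p = 0.183).

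Of 20 further checkpoint genes, 15 were lower, 5 were higher and 3 fell, with a median of -0.14. H2AX, the histone marked at double-strand breaks, had 7100.1, 7382 and 7149 with DMSO and 5574, 5408 and 5338 with the drug, a log2 fold change of -0.41 (limma adjusted p = 0.00225). WEE1, the kinase that restrains mitotic entry, and CDC25A, the phosphatase that opposes it, were at -0.25 and -0.24 (limma adjusted p = 0.0367 and 0.0409). These counts turned on single libraries and on settings. With all 6 libraries edgeR called 1, 3 and 2 genes lower in the Fanconi, recombination and checkpoint lists, and limma 0, 1 and 1 with quantile normalization. With eBayes without trend limma called 0, 0 and 0, with 4, 6 and 8 at an unadjusted p under 0.05 (against 16.1% of all genes). Without DMSO replicate 1, limma called 4, 7 and 9 genes of these lists lower, against 8.46% of all genes, and 1 recombination gene higher. After correction for GC content and length it called 6, 7 and 9 lower, against 10.5% of all genes, and 1 recombination gene higher. Without DMSO replicate 2 the numbers lower were 1, 2 and 2, and 1 recombination gene was higher. Without DMSO replicate 3 they were 0, 1 and 1, with 5 Fanconi genes at an unadjusted p under 0.05 in limma (against 17.2% of all genes). Without YK-4-279 replicate 1, 2 or 3 each of those fits called 1 checkpoint gene and 0 genes of the other lists. In these fits limma gave an unadjusted p under 0.05 to 4, 3 and 4 Fanconi genes and 8, 7 and 8 recombination genes, against 11.7%, 13.7% and 13.2% of all genes.

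Nonhomologous end joining is the alternative route for double-strand breaks. Of its 10 genes, 7 were lower, with a median of -0.037, and limma called none, with 3 at an unadjusted p under 0.05 (against 18.7% of all genes), where edgeR called 0 and DESeq2 called 1 on the recovered reads. PRKDC, the catalytic subunit of DNA-dependent protein kinase and the member with the highest mean, had 21004, 18351 and 19407 normalized counts with DMSO and 17120.4, 16678 and 16563 with the drug. Its groups did not overlap, with a log2 fold change of -0.22 (95% confidence interval -0.35 to -0.093, limma adjusted p = 0.0603). Without DMSO replicates 1 and 2, in turn, limma called 2 and 1 genes of the list lower, against 8.46% of all genes without the former, and after correction for GC content and length 2 lower (against 10.5%) and 1 higher. The list median ran from -0.075 without DMSO replicate 3 to -0.0097 without DMSO replicate 1, and was -0.067, -0.067 and -0.062 without DMSO replicate 2, YK-4-279 replicate 2 and YK-4-279 replicate 3.

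Targets of p53, which report on a damage response, had a median above that of all genes. Of 22 genes 21 were tested, 6 of them below 0 and 15 above, the median was 0.063, and 3 rose, where 176 of all 13930 genes did. GDF15, a secreted stress factor, had 382, 452 and 458 normalized counts with DMSO and 606, 674 and 622 with the drug. PLK2, a stress-induced kinase, had 1033, 943 and 981 and 1285, 1239 and 1299.7, and SESN2, a regulator of growth signaling under stress, had 338, 367 and 352 and 434, 465 and 445. In each of the 3 the YK-4-279 libraries lay above the DMSO libraries, and the log2 fold changes were 0.56, 0.37 and 0.35 (limma adjusted p = 0.00741, 0.0109 and 0.041). AEN, a nuclease of apoptosis and the gene of this list with the highest mean, was at 0.017 (95% confidence interval -0.16 to 0.20) and at -0.094 without DMSO replicate 1. Without DMSO replicate 1, limma called 4 of the list higher and 3 lower, against 644 higher and 1179 lower of all genes, and without DMSO replicate 3 it called 2 higher. After correction for GC content and length it called 3 higher and 2 lower, with a median of 0.025. Without YK-4-279 replicate 1, 2 or 3, limma called 0, 0 and 0 of the list higher. There 5, 6 and 7 had an unadjusted p under 0.05 in either direction, against 11.7%, 13.7% and 13.2% of all genes. With all 6 libraries edgeR and DESeq2 called 3 and 3 higher. With quantile normalization limma called 2 higher, and with eBayes without trend 0. In the latter fit 6 had an unadjusted p under 0.05 in either direction, against 16.1% of all genes.

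**Figure D5:**
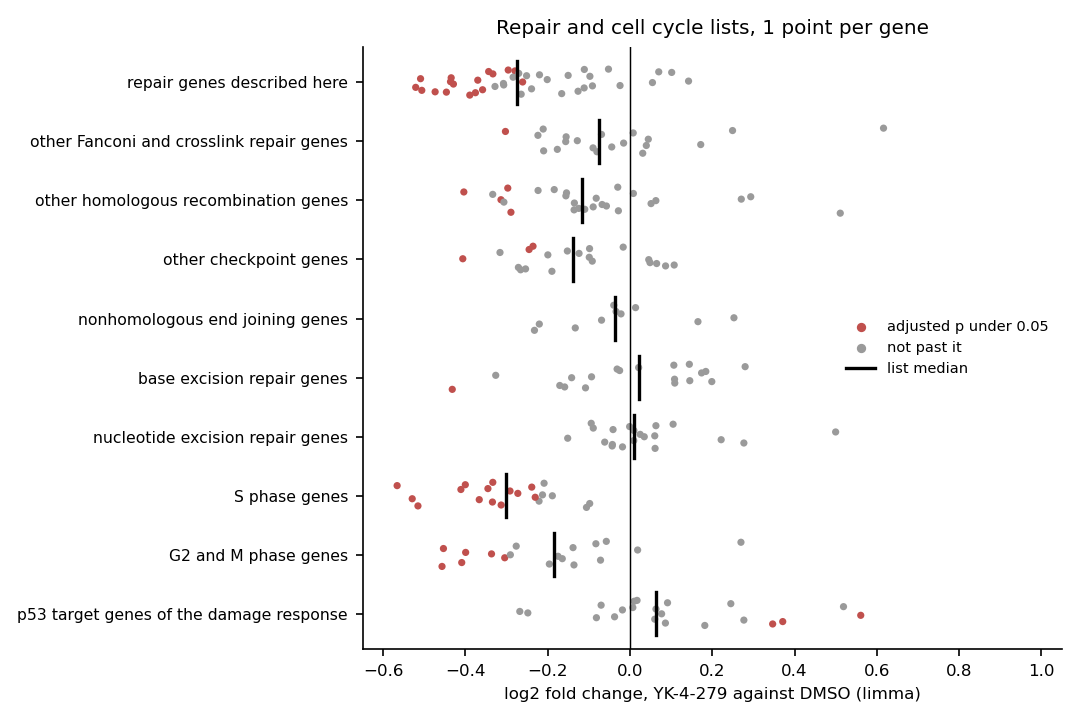
Log2 fold change with YK-4-279 against DMSO (horizontal axis) of the 40 repair genes and of 9 other lists (vertical axis), 1 point per gene, red where the limma adjusted p-value was under 0.05, with a black bar at each list median. The medians are -0.28 for the 40 repair genes, -0.30 for S phase genes, -0.19 for G2 and M phase genes and 0.063 for p53 targets.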

How the data were processed

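Polyadenylated RNA of 3 DMSO and 3 YK-4-279 Rh30 samples was sequenced in pairs of reads from a directional library. The authors used BBDuk for trimming, STAR 2.7.9a for alignment to hg38 and for counts per gene, and DESeq2 1.44.0. The annotation and the use of strand are not given in the sources used here. The deposited values are a normalized signal, reads per gene multiplied by 1 factor of each library, and 100% of them were whole multiples of the smallest value of their column within 1e-06 reads. In DMSO replicate 2 and YK-4-279 replicate 3 the factor was within 0.1% of 1, and count tests served only as alternatives. Of 35269 rows, 1 without a gene name (at most 6 reads in a library) was left out. No per-sample column was unused.

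Differences were tested, two-sided, with limma 3.58.1 in R 4.3.3 (lmFit, eBayes with trend) on log2(normalized count + 1), over genes with a mean of at least 10, with Benjamini-Hochberg adjustment. Fold changes are on that scale, which understates genes with few reads. The labels do not say that replicates were separate cultures, so p-values measure the spread between these samples, which may be technical. Between libraries of a group, chi-square per degree of freedom was 2.20 or more, above counting noise. It was 16.1 and 13.9 between DMSO replicate 1 and DMSO replicates 2 and 3, and from 2.20 to 2.83 in the other pairs. Positions, transcript length and GC content came from GENCODE 44, and 98.4% of genes had them. Alternatives were a pseudocount of 10, a mean of at least 100, no filter, a replicate block, eBayes without trend, scaling by TMM or by quantiles, edgeR 4.0.16, DESeq2 1.42.0, the omission of each library in turn, and the correction by loess (span 0.3) for GC content and transcript length. The code was tested on simulated data. All 40 members could be named, with values in each library for those past the threshold and, by role, for the highest mean and the largest change. In most other lists the highest mean and up to 3 of the largest changes past the threshold with a mean of at least 100 were named. The S phase list and the G2 and M phase list were exceptions, with only CCNE2 and KIF11 named. Neither had the highest mean or the lowest log2 fold change of its list. The members and lists were chosen with earlier results of these data known.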

Additional observations from a re-analysis of the deposited data

How the results depend on the processing

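The member median stayed within the spread between libraries (0.057 on the log2 scale, SD) in each alternative, and from 35 to 37 members were below 0. The number of members past the threshold was 26 after correction for GC content and transcript length, 11 with quantile normalization and 0 with eBayes without trend in limma (25 at an unadjusted p under 0.05, as were 16.1% of all genes), against 16 by edgeR and 20 by DESeq2, and ran from 0 to 25 when single libraries were omitted. For all genes the counts were 1921 (488 higher, 1433 lower), 277 (132 higher, 145 lower) and 33 (30 higher, 3 lower), against 475 (176 higher, 299 lower), 465 by edgeR and 623 by DESeq2, and ran from 19 to 1823 when single libraries were omitted. Correlations of same-numbered deviations from group means were -0.098, -0.027 and -0.027. They cannot decide whether replicate numbers paired the samples, because deviations from a mean of 3 libraries are not independent. With a replicate block 8 members and 180 genes passed. The sign changed for ATR with quantile normalization (0.017) and the trend removed (0.013), and for FANCE (-0.023) and XRCC3 (-0.022) with the trend removed. With single libraries omitted, ATR ran from -0.084 to 0.054, FANCE from -0.0067 to 0.10, XRCC3 from -0.12 to 0.18, PALB2 from -0.20 to 0.0096 and ATM from -0.096 to 0.00066. Of the other values of single members, 515 kept their direction and side of the threshold, 90 lost the call and 24 gained it. The causes of these changes were not tested.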

Other observations

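Base excision repair and nucleotide excision repair act on damaged bases. Of 19 base excision repair genes, 9 had a log2 fold change below 0 and 10 above, and the list median was 0.021, which was -0.058 without DMSO replicate 1, -0.0065 and -0.0086 without YK-4-279 replicates 1 and 2 in turn, 0.087 and 0.069 without DMSO replicates 2 and 3 in turn, -0.025 over genes with a mean of at least 100 and -0.043 after correction for GC content and transcript length. NEIL3, a glycosylase of single-stranded and crosslinked DNA, was the 1 gene of the list that fell, where 2.15% of all genes did. It had 291, 295 and 291 normalized counts with DMSO and 234, 217 and 199 with the drug, with no overlap, and a log2 fold change of -0.43 (95% confidence interval -0.65 to -0.22, limma adjusted p = 0.0346). PARP1, which binds strand breaks and had the highest mean of the list, was at -0.17 (limma adjusted p = 0.104), with each YK-4-279 library below each DMSO library. Without DMSO replicate 1, 4 genes fell (against 8.46% of all genes), and 4 did after the correction (against 10.5%). Without DMSO replicate 3, without any 1 of the YK-4-279 libraries, or with eBayes without trend, no gene of the list was called by limma. In these 5 fits 4, 3, 5, 3 and 4 genes had an unadjusted p under 0.05. Over all genes 17.2%, 11.7%, 13.7%, 13.2% and 16.1% had such a p. With all 6 libraries edgeR and DESeq2 called 1 and 1 of the list.

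Of 21 nucleotide excision repair genes, 20 were tested, 9 of them below 0 and 11 above (median 0.0092), and limma called none, with 3 at an unadjusted p under 0.05 (against 18.7% of all genes) and none called by edgeR or DESeq2. DDB1, the damage sensor with the highest mean of the list, had 7688, 7900.1 and 7896 normalized counts with DMSO and 7535, 7874 and 7385 with the drug. The groups overlapped, and the log2 fold change came to -0.043 (95% confidence interval -0.16 to 0.071). Without DMSO replicate 1, limma called 2 genes of the list higher, where 644 of all 13930 genes were. After the correction it called 1 higher, where 488 of all 13705 genes were. The median was 0.042, -0.014 and 0.027 without DMSO replicates 1, 2 and 3, and 0.019 and 0.019 without YK-4-279 replicates 2 and 3. DDB2 and XPC also belong to the list of p53 targets.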
